A study of Mus musculus with 6 samples.

Results

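The liver enzymes examined here make urea, break down amino acids and make or store glucose. Of 34 listed genes, 32 were measured among the 23279 named genes of the arrays, and they were found by matching gene symbols to the Entrez-numbered features. Sds and Gls2 were not analysed here. The members were named by function, with earlier results of these data known, and no threshold on a measured value entered the rule. None of the 32 passed the test between livers labelled knockout and control livers, and the few that came closest were higher in the livers labelled knockout. The clearest of these were Gys2 (1.52-fold) and Hpd (1.45-fold). Of the 32, 12 had a mean below that of the median gene.

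Expression was measured in whole mouse fetal livers at embryonic day 11.5, on 6 arrays from 6 samples that the labels call biological replicates. The 3 livers labelled knockout are titled Stab2Cre;Gata4 knockout, which the protocol gives as Stab2-Cre with both Gata4 alleles floxed (Gata4fl/fl). The 3 controls are titled Stab2Cre;Gata4 heterozygous, so as titled they too carry the Cre and 1 floxed allele. The floxed line is B6;129-Gata4tm1.1Sad/J, and embryos came from Stab2-Cretg/wt;Gata4fl/wt crossed to Gata4fl/fl mice. The Cre follows Stab2, which marks the endothelium of liver sinusoids and not the hepatoblasts that make most of these enzymes. The sources do not say how many embryos went into an array, so p-values measure only the spread between these samples. Gata4 itself was higher in the livers labelled knockout (10.42 ± 0.19 against 9.91 ± 0.05, log2 value, mean ± SD, n = 3; limma adjusted p = 0.0409). Where its probes lie relative to the deleted exons is not known here. The labels are therefore unchecked by Gata4, and each direction given rests on them.

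Urea is made by a cycle of enzymes that begins in the mitochondria of hepatocytes and takes up ammonia set free when amino acids are broken down. The carbon skeletons that remain feed glucose synthesis, in which Pck1, Fbp1 and G6pc catalyse steps that glycolysis cannot run backwards. Liver also keeps glucose as glycogen. In the embryo the liver is above all a site of blood formation, and many of these enzymes are known to reach high levels only around or after birth.

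All values are log2 expression values that the authors made with RMA, which gives every array the same distribution with a median of 5.43. A difference of 1 on this scale is 2-fold. Differences are given as labelled knockout minus control, with standard errors (SE) and adjusted p-values from a limma fit across all 23279 genes, and a call needs an adjusted p under 0.05. In a mixed tissue a value is a share of all RNA, and fewer cells of a type cannot be told apart from less RNA per cell.

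Over the libraries as a whole, blood cell markers were lower and mesenchymal markers higher in the livers labelled knockout, while no hepatoblast marker passed the test. Of 18 erythroid markers 9 fell and 0 rose (median −0.80), and the mean log2 level over the list was 9.13 to 9.27 in the livers labelled knockout and 9.68 to 10.32 in controls. Of 17 macrophage markers 13 fell and 0 rose (median −1.06; list mean 6.24 to 6.62 against 7.22 to 7.54). Of 16 mesenchymal markers 5 rose and 0 fell (median 0.47; list mean 9.15 to 9.44 against 8.80 to 9.01), and of 15 endothelial markers 4 rose and 3 fell (median 0.19; list mean 8.25 to 8.62 against 8.36 to 8.53). The endothelial markers that fell were Stab2 (−1.30), Gpr182 (−1.18) and Lyve1 (−1.14). Those that rose were Emcn (1.00), Flt1 (0.65), Pecam1 (0.63) and Cdh5 (0.53), so the median hides opposite changes. None of 19 hepatoblast markers passed in limma (median 0.12, list mean 10.23 to 10.43 against 10.09 to 10.21). At an unadjusted p under 0.05, 6 were higher and 1 lower (31.6% and 5.26%, against 11.1% and 11.5% of all genes). By that measure 17 erythroid markers were lower and 0 higher, and 15 macrophage markers were lower and 1 higher. Of the mesenchymal markers 10 were higher and 0 lower, and of the endothelial markers 7 were higher and 3 lower. Without labelled knockout replicate 2, 3 hepatoblast markers passed as higher. Albumin Alb and alpha-fetoprotein Afp, which define these cells, read 13.33 to 13.51 and 13.30 to 13.51, so the tissue label matched its markers. Both lay at the top of the scale, where a change could go unseen. The other marker counts moved when 1 array was left out, as did the count over all genes, while the list medians kept their sign. Erythroid markers that fell numbered 1 without control replicate 3, 3 without control replicate 2 or labelled knockout replicate 3, and 4 without labelled knockout replicate 2. They numbered 8 without labelled knockout replicate 1 and 11 without control replicate 1. Macrophage markers that fell numbered 3 without control replicate 3 and 8 without labelled knockout replicate 3. Without each of the other arrays in turn, 9 to 12 macrophage markers fell. Mesenchymal markers that rose numbered 2 without control replicate 1 and 0 without control replicate 2, control replicate 3 or labelled knockout replicate 3. They numbered 4 without labelled knockout replicate 1 and 6 without labelled knockout replicate 2. Endothelial markers that rose numbered 0 without control replicate 2 or 3, 1 without labelled knockout replicate 3 and 2 without replicate 1 of either group, and 1 fell without control replicate 3. With a sex term no marker of these lists passed, at medians of −0.78 (erythroid), −0.91 (macrophage), 0.45 (mesenchymal), 0.31 (endothelial) and 0.20 (hepatoblast). Labelled knockout replicate 2 had the lowest quality weight, 0.53 against 1.02 to 1.29 for the other arrays. Embryo sex, which the labels do not give, was uneven. Xist was high (10.19 to 10.71) in control replicate 2 and every liver labelled knockout. It was low in the remaining controls (3.58 for replicate 1, 3.96 for replicate 3). The part of these differences in the results below was not tested.

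Of the 32 enzyme genes, 0 rose and 0 fell, against 3.59% of all genes called higher and 2.77% called lower (6.36% in all). At an adjusted p under 0.1 there were 3 higher and 0 lower, against 6.14% and 5.46% of all genes. At an unadjusted p under 0.05, 7 of the 32 (21.9%) were higher and 0 lower, against 11.1% and 11.5% of all genes. Values of the groups did not overlap in 8 of the 32 (25%), all higher in the livers labelled knockout, against 13.0% of all genes higher and 14.3% lower. A positive difference was seen in 25 of 32 (78.1%), against 48.3% of all genes and 14 of 19 hepatoblast markers (73.7%). The median difference was 0.12, against −0.01 over all genes. The hepatoblast markers had the same median in this fit, but not when 1 array was left out. Medians of the enzyme genes and of these markers were 0.04 and 0.15 without control replicate 2. They were 0.16 and 0.11 without control replicate 1, and 0.14 and 0.21 without labelled knockout replicate 2. Differences ran from −0.53 (Ass1) to 0.60 (Gys2). For 30 of the 32, the 95% interval of the difference lay within 2-fold in either direction, and for 25 within 1.5-fold. The exceptions to the first were Ass1 and Ahcy, whose values scattered widely within the groups.

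**Figure D1:**
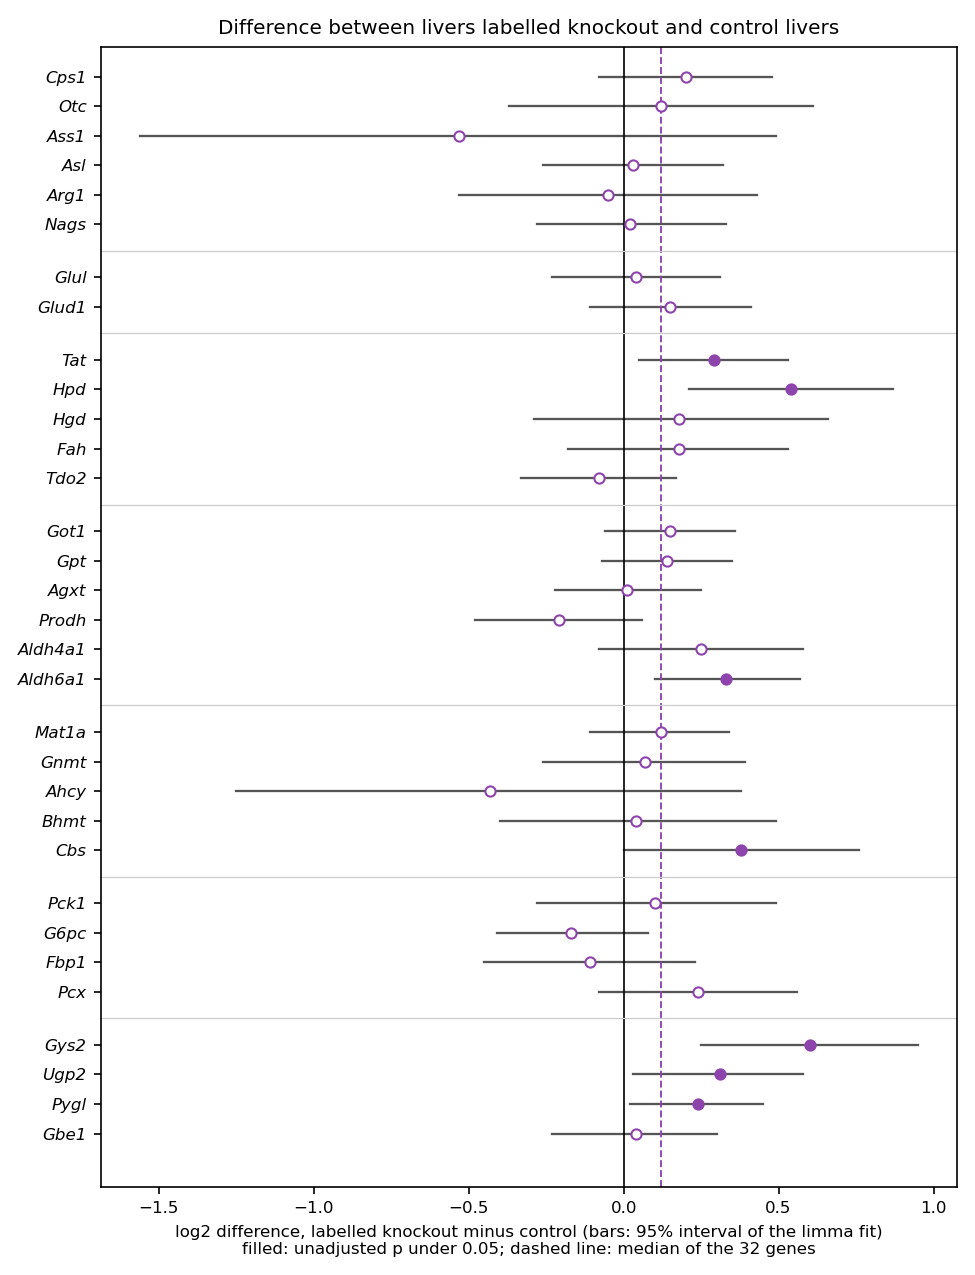
Difference of each of the 32 genes (log2, labelled knockout minus control, x axis), with the 95% interval of the limma fit as a bar, grouped by role from urea cycle at the top to glycogen at the bottom. Filled points are the 7 genes with an unadjusted p under 0.05, which all lie to the right of 0, and the dashed line is the median of 0.12.

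Array by array, the median over the 32 genes of the value minus the control mean was 0.14, 0.03 and 0.19 in labelled knockout replicates 1, 2 and 3. It was 0.09, −0.08 and 0.02 in control replicates 1, 2 and 3. The groups overlapped, because labelled knockout replicate 2 lay below control replicate 1. Within the controls, replicate 2 was the lowest array for 18 of the 32 genes, and within the livers labelled knockout replicate 2 was the lowest for 19. Control replicate 2 is also the only control with a high Xist value, so a comparison within that sex sets all livers labelled knockout against it alone. There the median was 0.20, a value that rests on 1 control array, the lowest control for most of these genes. None passed after adjustment in that comparison (3 genes of the whole array did, 0.0129%).

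**Figure D2:**
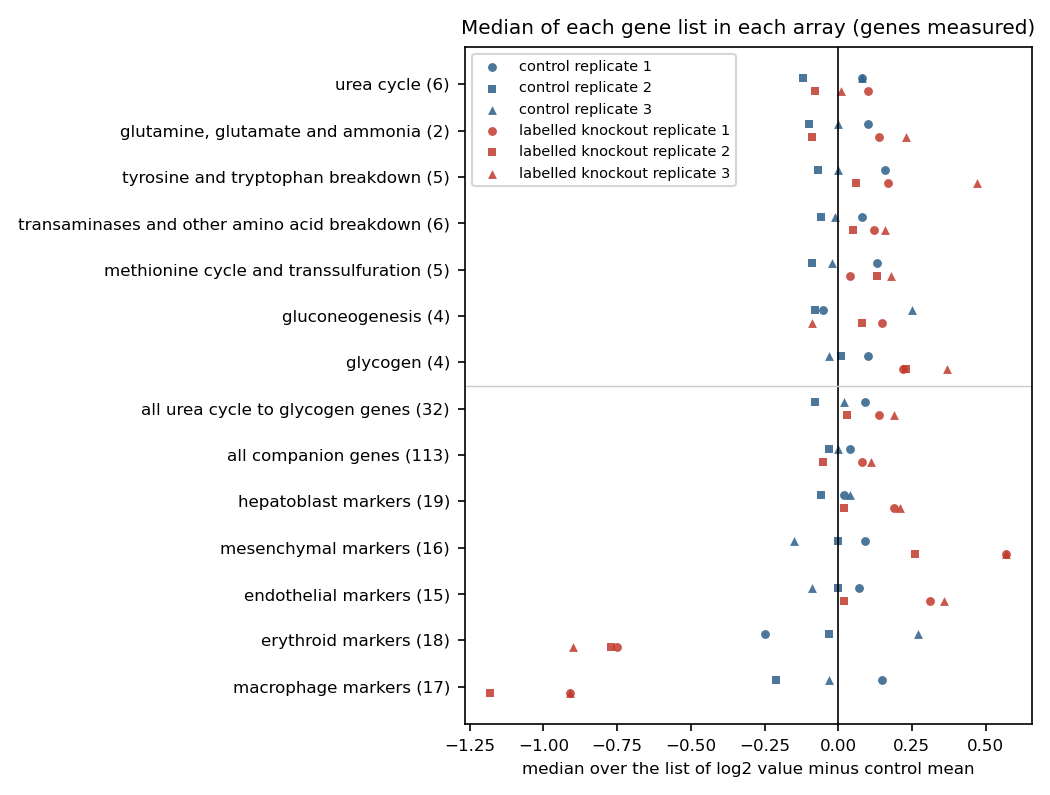
Each array's median distance from the control mean over a gene list (log2, x axis), with the number of genes measured in brackets. Role groups stand above the line, and below it are all 32 genes, the 113 companion genes and the marker lists. In the glycogen group the livers labelled knockout (0.22 to 0.37) do not overlap the controls (−0.03 to 0.10), whereas in the other role groups they do.

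Some of these enzymes read near the bottom of the scale at this stage in both groups, and others near its top. The lowest 25% of all genes end at a mean of 3.73 and the median gene reads 5.52. Probes differ in brightness, so a place on this scale describes the signal and not the amount of transcript, a low value does not show absence, and no order of abundance between genes is meant. As a guide to background, 95% of 1351 olfactory and vomeronasal receptor genes read below 4.37, and 3 Y-linked genes read 3.13 to 4.28 in the 4 arrays with high Xist but at least 7.51 in the others.

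Tdo2, Agxt and Fbp1 were in the lowest 25%, with means over the 6 arrays of 3.31, 3.59 and 3.54. They encode tryptophan dioxygenase, the peroxisomal alanine-glyoxylate transaminase and fructose bisphosphatase. Cps1 (3.83 to 4.22 in single arrays), Mat1a (4.35), Pck1 (4.31) and G6pc (3.97) also read below the receptor genes' mark of 4.37, as did 37.5% of all genes. Arg1 (5.36), Tat (4.41), Gpt (4.46), Gnmt (5.49) and Ahcy (4.76) lay above it but under the median gene. At the other end, 11 of the 32 were in the top 25%, which begin at 8.02, among them Otc (8.65), Asl (9.18), Glul (11.06), Glud1 (12.24), Got1 (9.45), Gys2 (9.24) and Ugp2 (9.32). For the 12 genes under the median of the scale the median difference was 0.04, with 7 positive, and for the 20 above it 0.16, with 18 positive. Differences of genes near background can be compressed on arrays.

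**Figure D3:**
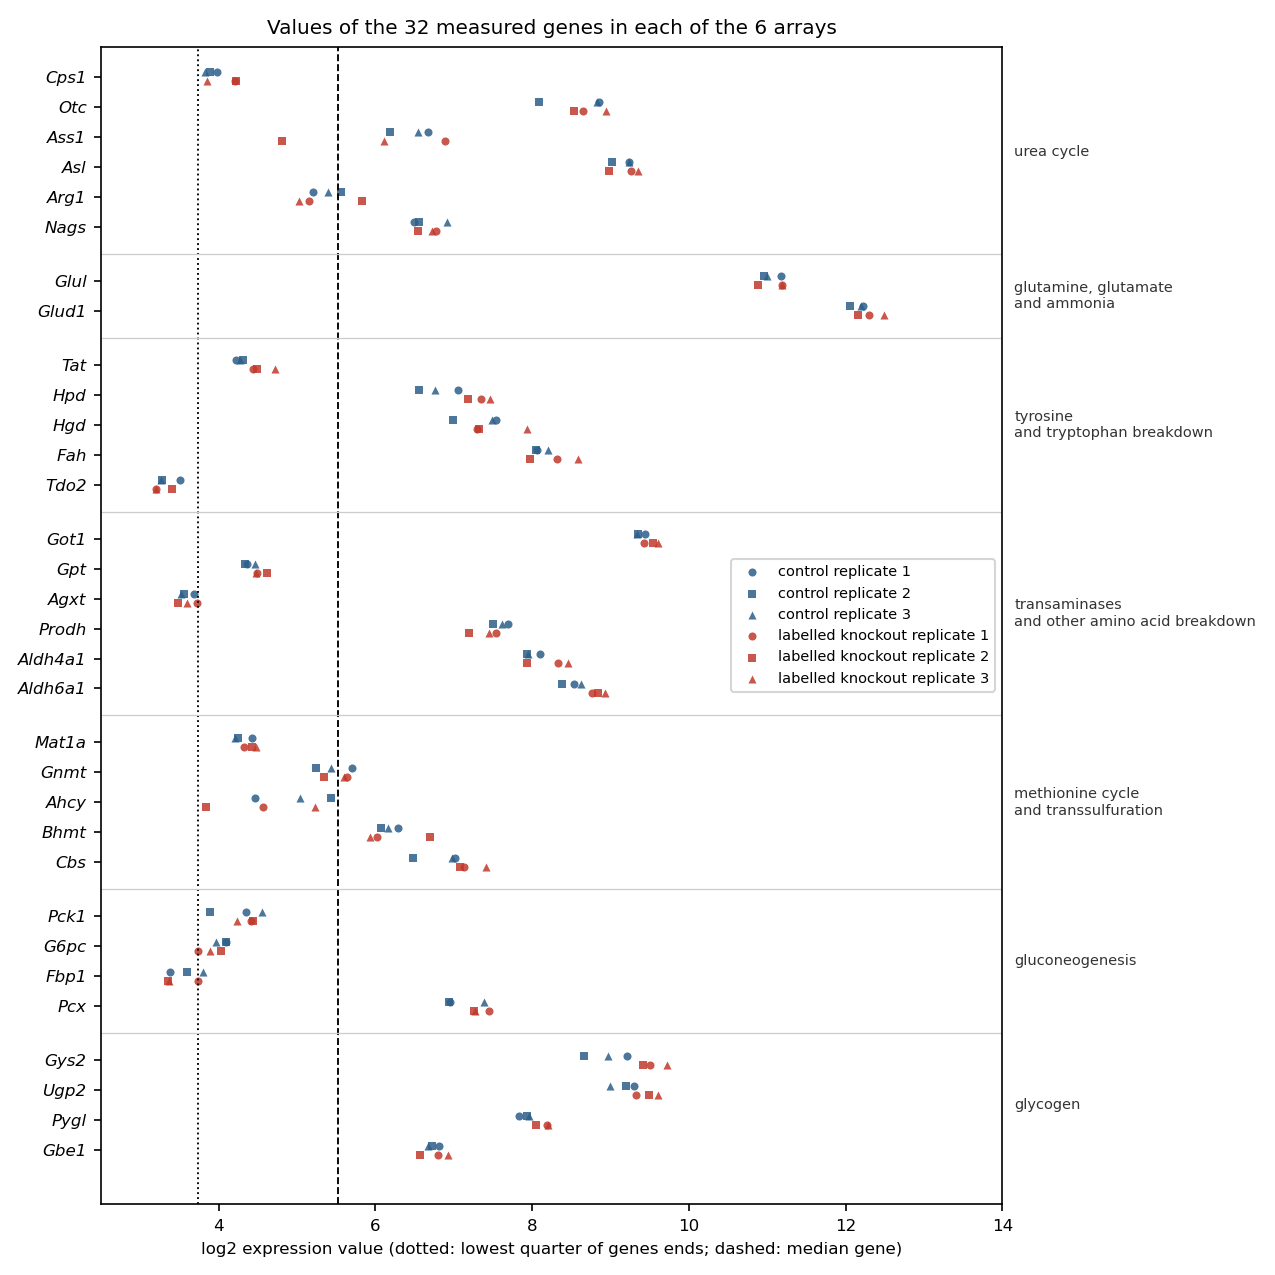
Log2 expression value (x axis) of each of the 32 genes in each of the 6 arrays, control in blue and labelled knockout in red, with a marker shape for each replicate number. The dotted line is the end of the lowest 25% of genes (3.73) and the dashed line the median gene (5.52). The means of Tdo2, Fbp1 and Agxt lie left of the dotted line, and Ass1 and Ahcy show the widest scatter.

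Of the 4 glycogen genes, 3 had groups that did not overlap, each higher in the livers labelled knockout. Over all genes, 13.0% did not overlap with the livers labelled knockout higher and 14.3% with them lower. None of the 4 passed the test. Gys2, the liver glycogen synthase, which lengthens glycogen chains, read 9.50, 9.41 and 9.72 in labelled knockout replicates 1, 2 and 3 and 9.21, 8.66 and 8.96 in the controls. Every liver labelled knockout was above every control, and the lowest control was replicate 2. The difference of 0.60 (SE 0.15, 1.52-fold, 95% interval 0.25 to 0.95) did not pass in limma (adjusted p = 0.0584). Over 16 other settings of the fit its adjusted p ran from 0.0303 to 0.165. It passed with a variance trend (0.0303) and without the dimmest 50% of genes (0.0351). Against control replicate 2 alone, the difference was 0.88.

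Ugp2 makes UDP-glucose, the building block of glycogen. It read 9.32, 9.49 and 9.61 in the livers labelled knockout and 9.30, 9.20 and 8.99 in controls 1, 2 and 3. The groups were apart by only the gap between 9.32 and 9.30 (difference 0.31, SE 0.12, adjusted p = 0.171). Pygl, the liver phosphorylase that releases glucose units from glycogen, read 8.19, 8.05 and 8.20 against 7.83, 7.94 and 7.96. These values did not overlap either, but the difference was small (0.24, SE 0.09, adjusted p = 0.176). Gbe1, the branching enzyme, overlapped between groups (6.77 ± 0.18 against 6.73 ± 0.07, SD, n = 3; adjusted p = 0.907).

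The enzymes of glucose synthesis showed no shared direction. Pcx, pyruvate carboxylase, which starts the pathway in mitochondria, read 7.45, 7.26 and 7.27 in the livers labelled knockout and 6.96, 6.93 and 7.38 in controls. Control replicate 3 lay among the livers labelled knockout, and the difference did not pass (0.24, SE 0.14, adjusted p = 0.370). Pck1, the cytosolic PEP carboxykinase, read 4.41, 4.44 and 4.24 against 4.35, 3.89 and 4.55, and the groups overlapped (0.10, SE 0.17, adjusted p = 0.793). Its only low array was control replicate 2, and against that array alone the difference was 0.48 (adjusted p = 0.260 in the limma fit with a sex term).

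G6pc, the phosphatase that releases free glucose, read 3.73, 4.03 and 3.88 against 4.09, 4.09 and 3.97. Fbp1 read 3.74, 3.35 and 3.37 against 3.38, 3.59 and 3.80. Both lay near the bottom of the scale, their groups overlapped, and neither passed (−0.17, adjusted p = 0.417, and −0.11, adjusted p = 0.753).

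In tyrosine breakdown, Tat removes the amino group, Hpd makes the compound whose ring Hgd cleaves, and Fah performs the last step. Hpd read 7.35, 7.18 and 7.46 in the livers labelled knockout and 7.06, 6.55 and 6.76 in controls 1, 2 and 3. All livers labelled knockout were above all controls, with control replicate 2 again the lowest. The difference was 0.54 (SE 0.14, 1.45-fold, 95% interval 0.21 to 0.87) and did not pass (limma adjusted p = 0.0660). Over 16 other settings the adjusted p ran from 0.0397 (without the dimmest 50% of genes) to 0.189.

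Tat read 4.43, 4.49 and 4.72 against 4.22, 4.31 and 4.26. The groups did not overlap, but all values lay low on the scale and the difference did not pass (0.29, SE 0.10, adjusted p = 0.151). Hgd (7.52 ± 0.36 against 7.34 ± 0.30, adjusted p = 0.695) and Fah (8.29 ± 0.31 against 8.11 ± 0.09, adjusted p = 0.578) overlapped between groups (SD, n = 3). Labelled knockout replicate 3 was the highest array for each of these 4 genes. Tdo2, which opens the breakdown of tryptophan, read 3.20 to 3.50 in all arrays (adjusted p = 0.752).

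Among the transaminases and other breakdown enzymes, Aldh6a1 came nearest to a call. It encodes the dehydrogenase that completes valine breakdown, and it read 8.77, 8.84 and 8.92 in the livers labelled knockout and 8.53, 8.38 and 8.62 in controls. The groups did not overlap (difference 0.33, SE 0.10, 1.26-fold, adjusted p = 0.0981). Its adjusted p ran from 0.0596 to 0.258 over 16 other settings. Aldh4a1 and Prodh act in sequence on proline and differed in opposite directions. Aldh4a1 read 8.33, 7.93 and 8.46 against 8.10, 7.93 and 7.95 (0.25, SE 0.14, adjusted p = 0.374). Prodh read 7.54, 7.19 and 7.45 against 7.69, 7.50 and 7.61 (−0.21, SE 0.12, adjusted p = 0.360). In both, labelled knockout replicate 2 was the lowest of its group, the groups overlapped and neither gene passed.

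Got1, the cytosolic aspartate transaminase, read 9.43, 9.54 and 9.61 against 9.44, 9.35 and 9.34, and labelled knockout replicate 1 lay just below control replicate 1 (0.15, SE 0.09, adjusted p = 0.403). Gpt, the alanine transaminase, read 4.49, 4.62 and 4.47 against 4.36, 4.34 and 4.47. Its groups touched without overlapping, by values that differ only in the third decimal (0.14, SE 0.09, adjusted p = 0.445). Agxt overlapped fully (3.60 ± 0.12 against 3.59 ± 0.09, adjusted p = 0.962).

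The urea cycle did not move as a unit, and no member of it had groups that did not overlap. Its 6 genes had a median difference of 0.03, with 4 positive and 2 negative. Cps1, which fixes ammonia as carbamoyl phosphate, read 4.21, 4.22 and 3.86 in the livers labelled knockout and 3.98, 3.88 and 3.83 in controls. Labelled knockout replicate 3 lay within the controls (0.20, SE 0.12, adjusted p = 0.396), and all 6 values were low on the scale. Otc, the X-linked enzyme that joins carbamoyl phosphate to ornithine, read 8.64, 8.54 and 8.94 against 8.85, 8.09 and 8.82. Only control replicate 2 stood low (difference 0.12, SE 0.21, adjusted p = 0.819). Against that array alone the difference was 0.62, and without it −0.13.

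Ass1, argininosuccinate synthase, varied most of all 32 genes. It read 6.88, 4.81 and 6.11 in labelled knockout replicates 1, 2 and 3 and 6.67, 6.19 and 6.54 in controls. The lowest value came from labelled knockout replicate 2. Replicate 3 of that group also lay below every control, by a small gap (6.11 against 6.19), while replicate 1 lay above every control. The difference was −0.53 (SE 0.44, limma adjusted p = 0.565) with all arrays and 0.03 without labelled knockout replicate 2. Its pooled within-group SD of 0.76 was larger than that of 99.6% of all genes. Asl, which splits argininosuccinate, was steady instead (9.20 ± 0.20 against 9.16 ± 0.13, SD, n = 3; 95% interval −0.26 to 0.32, adjusted p = 0.924).

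Arg1, the arginase that releases urea, read 5.15, 5.83 and 5.02 against 5.20, 5.56 and 5.39, and labelled knockout replicate 2 was the highest of all arrays (−0.05, SE 0.21, adjusted p = 0.932). Macrophages can also express Arg1, and the mean level of the macrophage markers was lower in every liver labelled knockout than in every control. Their part in the Arg1 values was not tested. Nags, which makes the activator of Cps1, overlapped between groups (6.68 ± 0.12 against 6.65 ± 0.23, adjusted p = 0.949). The ammonia-handling enzymes Glul, glutamine synthetase, and Glud1, glutamate dehydrogenase, were bright and overlapping (11.08 ± 0.18 against 11.04 ± 0.11 and 12.31 ± 0.17 against 12.16 ± 0.09; adjusted p = 0.897 and 0.503).

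In methionine metabolism, Mat1a makes S-adenosylmethionine, Gnmt uses it, Ahcy clears the product, Bhmt recycles homocysteine and Cbs sends it to cysteine. Cbs read 7.13, 7.07 and 7.41 in the livers labelled knockout and 7.01, 6.48 and 6.98 in controls. The groups did not overlap, and control replicate 2 was the low array (0.38, SE 0.16, adjusted p = 0.218). Against that array alone the difference was 0.72. Ahcy read 4.56, 3.84 and 5.22 against 4.46, 5.43 and 5.04, with a spread larger than that of 99.3% of genes (−0.43, SE 0.35, adjusted p = 0.553). Bhmt read 6.02, 6.69 and 5.94 against 6.28, 6.08 and 6.16. Labelled knockout replicate 2 was alone in being high (0.04, SE 0.19, adjusted p = 0.936). Mat1a (4.41 ± 0.07 against 4.29 ± 0.11, adjusted p = 0.572) and Gnmt (5.52 ± 0.16 against 5.46 ± 0.23, adjusted p = 0.854) overlapped.

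Several listed enzymes have a partner that catalyses the same step in other tissues or another compartment, and 14 genes listed as partners were measured. Gys1, the glycogen synthase of muscle and most tissues, was the only one to pass. It read 9.70, 9.54 and 9.58 in the livers labelled knockout and 8.73, 8.61 and 8.38 in controls, so that the groups lay far apart. The rise was 2.05-fold (1.04, SE 0.11, limma adjusted p = 0.00902), and it passed in all 6 fits without 1 array (adjusted p up to 0.0490) but not with a sex term (1.00, adjusted p = 0.154). The listed enzyme Gys2 differed by 0.60, and the difference between both synthases was not tested.

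Pck2, the mitochondrial PEP carboxykinase, read 9.51, 8.96 and 8.93 against 8.59, 8.49 and 8.65, without overlap (0.56, SE 0.16, adjusted p = 0.0792), beside 0.10 for Pck1. Gpt2, the mitochondrial alanine transaminase, read 8.01, 7.91 and 8.07 against 7.66, 7.44 and 7.69, also without overlap (0.40, SE 0.10, adjusted p = 0.0637), beside 0.14 for Gpt. Neither passed. Prodh2, which acts on hydroxyproline, differed by 0.50 (adjusted p = 0.148) with overlapping groups, beside −0.21 for Prodh.

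None of the other partners passed, and among them only Ahcyl1 (higher) and Ahcyl2 (lower) had groups that did not overlap. Over all 14 partners, groups did not overlap in 4 as higher and 1 as lower, against 13.0% and 14.3% of all genes. Got2 differed by 0.21 (adjusted p = 0.305), Ahcyl1 by 0.16 (0.348), Pygb by 0.10 (0.652), Arg2 by 0.08 (0.699) and G6pc3 by 0.00 (0.992). Negative differences were those of Pygm (−0.36, 0.354), Ahcyl2 (−0.22, 0.374), Mat2b (−0.16, 0.472), Bhmt2 (−0.14, 0.744) and Fbp2 (−0.05, 0.933). Mat2b encodes a regulatory subunit and not an enzyme of its own, and Ahcyl1 and Ahcyl2 are relatives of Ahcy with other functions.

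**Figure D4:**
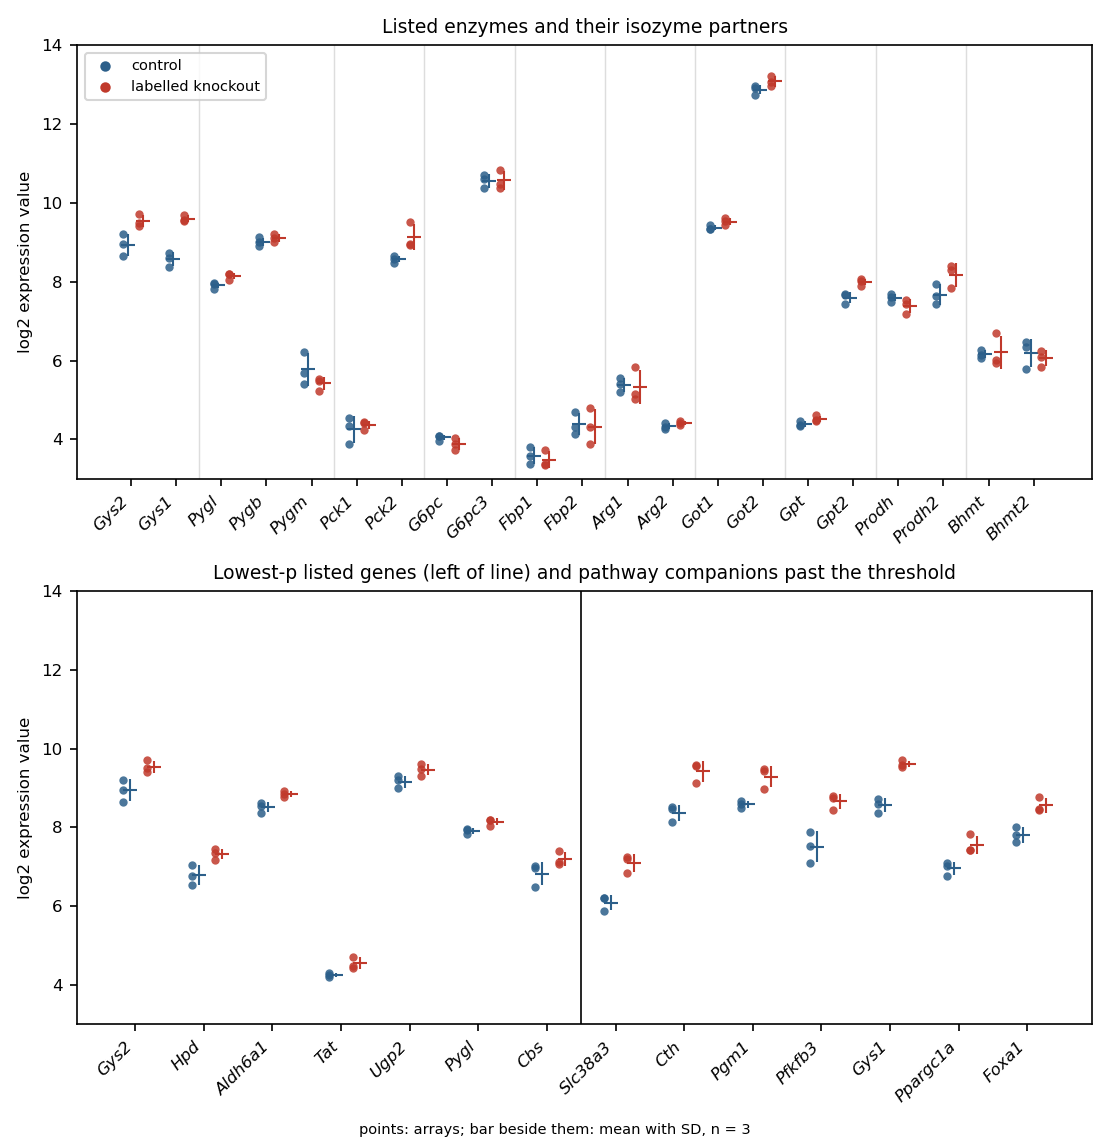
Log2 expression value (y axis) in each array, control in blue and labelled knockout in red, with mean and SD (n = 3) beside the points. The upper panel sets listed enzymes next to their partners, and the lower panel sets the 7 listed genes at an unadjusted p under 0.05 (left of the line) beside the 7 companion genes that rose. Gys1 differs by 1.04 and Gys2 by 0.60.

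The wider pathway was read from 5 lists of 113 measured companion genes, of which 7 rose and 0 fell (6.19% and none, against 3.59% and 2.77% of all genes). The median difference over the 113 was 0.07. Besides Gys1, these were Slc38a3, Cth, Pfkfb3, Pgm1, Ppargc1a and Foxa1. Slc38a3 carries glutamine across the hepatocyte membrane and was the only riser among 11 carriers and side reactions of the urea cycle. It read 7.26, 6.84 and 7.21 in the livers labelled knockout and 6.20, 5.88 and 6.20 in controls, a 2.02-fold rise (1.01, SE 0.15, limma adjusted p = 0.0137). Slc38a4 (0.38, adjusted p = 0.0535), Slc7a2 (0.66, adjusted p = 0.256) and Odc1 (−0.24, adjusted p = 0.200) of that list did not pass.

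Cth, which follows Cbs in making cysteine, was the only gene to rise among 43 others of amino acid breakdown. It read 9.56, 9.13 and 9.58 against 8.47, 8.13 and 8.51, a 2.07-fold rise (1.05, SE 0.16, adjusted p = 0.0151). Its neighbour in the pathway, Cbs, differed by 0.38 and did not pass. Of the same list, Bcat2 (−0.31), Gcat (0.27) and Hibch (−0.28) came next and did not pass (adjusted p = 0.152, 0.159 and 0.185).

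Among 17 further genes of glucose and glycogen metabolism 2 rose. Pfkfb3, which makes an activator of glycolysis that also restrains glucose synthesis, read 8.79, 8.44 and 8.76 against 7.89, 7.53 and 7.11 (1.15, SE 0.20, 2.23-fold, adjusted p = 0.0207). Pgm1, which converts glucose 6-phosphate on its way to glycogen, read 9.48, 8.98 and 9.43 against 8.68, 8.49 and 8.60 (0.71, SE 0.14, 1.63-fold, adjusted p = 0.0322). In both genes the groups did not overlap. Ppp1r3c, which tethers phosphatase to glycogen (0.96, adjusted p = 0.0599), and the glucose transporter Slc2a2 (0.57, adjusted p = 0.0819) did not pass.

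Of 29 regulators of these pathways, Foxa1, a pioneer factor of liver genes, rose by 0.75 (SE 0.14, adjusted p = 0.0266) and Ppargc1a, a coactivator of glucose synthesis genes, by 0.60 (SE 0.14, adjusted p = 0.0474). The Ppargc1a targets Pck1 and G6pc differed by 0.10 and −0.17 and did not pass. Both read below the receptor genes' mark of 4.37 (means 4.31 and 3.97), where a change could go unseen. Tcf7l2 (0.43, adjusted p = 0.0536) and Prkaca, a catalytic subunit of protein kinase A (0.41, adjusted p = 0.0550), missed the threshold. With a sex term each difference is taken against control replicate 2 alone, so it rests on 1 control array. It was then 1.23 for Slc38a3, 1.29 for Cth, 0.81 for Pgm1 and 1.13 for Pfkfb3. For Gys1 it was 1.00, for Ppargc1a 0.54 and for Foxa1 0.76. The part of sex in these rises was not tested. Of the 7, Gys1 alone passed in all 6 fits without 1 array. Slc38a3 and Cth each passed in 4 of those 6 fits, Foxa1 and Pfkfb3 in 3, Pgm1 in 1 and Ppargc1a in none.

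Promoter sequence is shown for Hpd and Aldh6a1, the listed genes with the smallest p after Gys2, whose promoter was not analysed here, and for Gys1 and Pgm1, the glycogen genes that rose. Each is the 250 bases upstream of the RefSeq start in GRCm38.p6, 5′ to 3′ on the gene's strand, in the first window listed. Capitals mark ACGTG, which is a form of the core of hypoxia response elements, and the other form was not searched. They also mark 4 forms of the GATA motif, and all were sought on either strand. The first form is AGATAA, another is written AGATAG, and those that begin with T are spelled TGATAA or otherwise TGATAG. No form of the GATA motif overlaps ACGTG.
Hpd, chr5:123182724-123182973, minus strand: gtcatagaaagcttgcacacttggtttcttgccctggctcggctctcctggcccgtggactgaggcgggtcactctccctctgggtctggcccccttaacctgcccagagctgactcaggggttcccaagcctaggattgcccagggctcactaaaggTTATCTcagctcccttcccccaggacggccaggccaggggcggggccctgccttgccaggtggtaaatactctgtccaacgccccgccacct
Aldh6a1, chr12:84451025-84451274, minus strand: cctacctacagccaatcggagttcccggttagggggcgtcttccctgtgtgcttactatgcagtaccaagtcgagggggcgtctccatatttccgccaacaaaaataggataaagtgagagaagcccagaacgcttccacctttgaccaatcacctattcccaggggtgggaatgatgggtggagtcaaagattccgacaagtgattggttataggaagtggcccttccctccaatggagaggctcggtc
Gys1, chr7:45434589-45434838, plus strand: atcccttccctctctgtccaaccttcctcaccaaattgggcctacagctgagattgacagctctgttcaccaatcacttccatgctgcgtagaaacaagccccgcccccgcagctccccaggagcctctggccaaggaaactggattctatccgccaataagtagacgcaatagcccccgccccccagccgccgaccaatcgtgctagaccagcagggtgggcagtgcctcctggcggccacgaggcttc
Pgm1, chr4:99929201-99929450, plus strand: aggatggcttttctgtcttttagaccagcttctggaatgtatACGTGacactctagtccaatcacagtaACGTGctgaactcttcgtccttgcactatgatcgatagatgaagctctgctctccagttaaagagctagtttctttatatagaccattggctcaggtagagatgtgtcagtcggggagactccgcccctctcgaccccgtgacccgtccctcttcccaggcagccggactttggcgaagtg

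Hpd holds 1 GATA motif, Pgm1 2 ACGTG, and Aldh6a1 and Gys1 neither. A window was listed for 26 of the 32 enzyme genes. A GATA motif was found in 8 of the 26 (30.8%), against 27.1% of the windows of 27025 genes, and ACGTG in 6 (23.1%), against 16.6%. Of the 5 risen companion genes with a window, 3 held ACGTG and 0 a GATA motif. A match is a run of letters in a short window and does not show binding.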

How the data were processed

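RNA of 6 mouse fetal liver samples was read on Affymetrix arrays, per the labels. The deposited values are log2 expression values that the authors made with RMA, per the submitters' processing notes; the log2 scale was read from the values, which run from 2.55 to 13.9 with identical sorted values in every array. A shift of most genes therefore cannot be seen. The sources name no chip definition, build or version. Of 24479 features, 23281 were named through the platform annotation (23156 with current RefSeq symbols of GRCm38.p6, 125 with the annotation's), 1198 had no name here, and the brighter of several features was kept for 2 genes, which left 23279. No column of values lacked a sample.

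The test was limma's (version 3.58.1, R 4.3.3), a linear model with moderated variances (4 residual and 4.06 prior degrees of freedom) of labelled knockout minus control, with no covariate and Benjamini-Hochberg adjustment over all genes, and the script was tested on simulated data. An exact permutation test of 3 against 3 cannot go below a two-sided p of 0.1. Sex was read from Xist and Y-linked genes. The member, companion (127 genes, 113 measured) and marker (89 genes, 85 measured) lists were chosen with earlier results of these data known. Named genes are all members, up to 4 of each companion list by p, all isozyme partners and some markers. The endothelial markers that passed were named after they were seen. Values in every array were to be given for the 12 members with the smallest p and for isozymes. Those of Ass1 and of the risen companions were added after they were seen. Same-numbered arrays did not deviate together (r = −0.05, −0.01 and −0.08 for numbers 1, 2 and 3), so no pairing was assumed. No list test was run.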

Additional observations from a re-analysis of the deposited data

How the results depend on the processing

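The count of enzyme genes past the threshold was 0 higher and 0 lower in the reported fit. It stayed at 0 in both directions in 14 of 17 alternatives. It was 1 higher with a variance trend (Gys2), 2 higher without the dimmest 50% of genes (Gys2 and Hpd, with fewer genes tested) and 3 higher at an adjusted p of 0.1 (Gys2, Hpd and Aldh6a1). The smallest adjusted p among the 32 ran from 0.0303 to 0.162. Their median difference stayed positive, at 0.04 to 0.16 without 1 array, and was 0.20 with a sex term. The 113 companion genes, whose alternatives were added after seeing the data, had 7 higher, which became 13 with a variance trend, 14 without the dimmest 50% of genes, 11 with array weights, 14 at an adjusted p of 0.1, 0 with a sex term and 1 to 12 without 1 array (1 without labelled knockout replicate 3 or control replicate 3, 3 without control replicate 2, 12 without labelled knockout replicate 2). Over all genes 1480 passed, 2700 at an adjusted p of 0.1, 3 with a sex term, 686 with the replicate block, and 41 to 1395 without 1 array (41 without control replicate 3). With the replicate number as a block, 0 enzyme genes and 6 companion genes passed (Foxa1 and Ppargc1a did not reach the threshold and 1 other gene did). Fewer genes or arrays entered some of these fits, and the cause of the changes was not tested.

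Signs turned for 12 genes, none of them past the threshold. For Ass1, the lowest difference of the 32, the sign turned without labelled knockout replicate 2. With array weights Bhmt read −0.07. Without 1 array the ranges were −0.04 to 0.07 for Agxt, −0.30 to 0.11 for Arg1, −0.05 to 0.14 for Asl, −1.01 to 0.03 for Ass1, −0.20 to 0.18 for Bhmt, −0.04 to 0.13 for Gbe1, −0.01 to 0.14 for Glul, −0.04 to 0.19 for Gnmt, −0.03 to 0.29 for Hgd, −0.06 to 0.16 for Nags, −0.13 to 0.25 for Otc and −0.08 to 0.25 for Pck1. No measure of signal over background was used, so the 7 enzyme genes below the receptor genes' mark may not be above background, and 3 arrays a group limit what a missed threshold can show.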
